A study of Mus musculus with 8 samples.

Results

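The proteasome core and regulatory subunit genes were taken as the genes named Psma, Psmb, Psmc or Psmd plus a number, without the inducible catalytic subunits Psmb8, Psmb9 and Psmb10. Among the probe sets that list a single symbol, the brightest by mean log2 signal stands for its gene. The rule found 35 of the 12393 genes that the array covers, and it used no measured difference between samples. The members are 8 alpha and 7 beta subunits of the core, 6 ATPases and 3 other subunits of the base of the regulatory particle, 8 subunits of its lid and 3 chaperones of base assembly.

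RNA of T cells from the spleens of C57Bl/6 mice was hybridised to 8 Affymetrix MOE430A_2.0 arrays, from mice labelled as wild type or as Gfi1 knockout. The cells, separated on an AutoMACS with a pan-T cell kit, were taken at 0 h, labelled as the untreated control, or after 4, 8 and 24 h with anti-CD3 plus anti-CD28 at 2 µg/ml, antibodies that engage the T cell receptor complex and its costimulatory receptor. Each genotype and time has 1 array, and the titles give 1 source number per genotype, so there are no replicates and no p-value for genotype. There is no array of cells cultured without antibodies, and a change from 0 h therefore joins stimulation with the hours of culture, and these cannot be told apart. The age and sex of the mice and the way the allele was made are not given in the labels.

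The proteasome is the barrel-shaped protease that degrades proteins marked with ubiquitin chains. Its core stacks rings of alpha subunits, which gate the entry, on rings of beta subunits, of which Psmb5, Psmb6 and Psmb7 carry the catalytic sites. The regulatory particle caps the core: its lid removes the ubiquitin, and the ATPases of its base unfold the substrate and thread it into the core. T cells that leave the resting state raise protein synthesis and turnover, and proteasome genes of mammalian cells are known to be transcribed in a coordinated way, in part through the transcription factor Nfe2l1.

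Values are signal intensity on the scale of the deposited table, whose 2% trimmed mean was 1000.4 to 1000.5 on every array. Signals under a floor of 141.88 were set to it before taking log2, and a gene counts as tested if it was above the floor on at least 2 arrays, which held for 8430 genes. Signal was above the floor for 56.5% to 61.5% of probe sets per array. Gfi1, the repressor that the knockout mice are labelled as lacking, gave signals of 881.5, 6359, 5259 and 3966 over the 4 times in the wild-type-labelled arrays and 2316, 5979, 6459 and 9885 in the knockout-labelled ones. The labelled knockout was thus not below wild type at 0, 8 or 24 h. Whether its probes fall in the deleted stretch is not given, so Gfi1 checks no label, and arrays are named by label throughout. T cell markers were above the floor on all 8 arrays for 13 of 13 measured genes, but their summed signal was 69375 to 97571 in the wild-type-labelled and 26069 to 62901 in the knockout-labelled arrays. Granulocyte precursor markers summed to 1006 to 16918 and 6688 to 177056 over 13 genes, and monocyte and macrophage markers to 1424 to 8960 and 18303 to 63815 over 14 genes, in the same order. No marker was at a signal of 0. The arrays therefore differ in the cell types that their RNA reports, the part of this in any difference below was not tested, and fewer cells of a type and less RNA per cell cannot be told apart in bulk RNA.

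Upstream sequences are shown for the members whose 24 h difference from 0 h came closest to the threshold of the test, and for all members that hold the core of the antioxidant response element, the kind of site through which Nfe2l1 acts. Of the 35 members, 28 were matched by gene identifier to a RefSeq table of 250 bases before the annotated gene start (build GRCm38.p6). Psma2, an alpha subunit, and Psmd8, a lid subunit, are printed whole, with the CCAAT box of Psma2, which starts 54 bases before the gene start, in capitals. Psma2 lies on the plus strand at chr13:14612992-14613241 and Psmd8 on the minus strand at chr7:29180674-29180923.
Psma2: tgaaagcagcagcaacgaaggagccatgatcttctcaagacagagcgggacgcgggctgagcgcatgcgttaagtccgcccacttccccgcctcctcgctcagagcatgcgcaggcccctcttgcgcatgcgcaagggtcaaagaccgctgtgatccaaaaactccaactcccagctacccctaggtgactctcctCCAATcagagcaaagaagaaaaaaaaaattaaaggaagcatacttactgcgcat
Psmd8: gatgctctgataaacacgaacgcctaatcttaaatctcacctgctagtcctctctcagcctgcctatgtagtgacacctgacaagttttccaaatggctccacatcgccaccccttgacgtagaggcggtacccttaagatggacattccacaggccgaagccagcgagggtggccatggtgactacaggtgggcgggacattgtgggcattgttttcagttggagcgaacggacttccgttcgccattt
The window of Psmd8 held none of the motifs searched.

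The antioxidant response element core was searched as TGACNNNGC on both strands. It was found in 5 of the 28 matched members (17.9%), against 10.1% of the first windows of 27025 genes. The matches, in capitals with up to 10 bases on each side, lie 47 bases before the start of Psmb5 (chr14:54618024-54618052, minus strand), 9 before Psmb6 (chr11:70525338-70525356, plus), 227 before Psmc6 (chr14:45329587-45329615, plus), 247 before Psmd12 (chr11:107479278-107479299, plus) and 31 before Psmd9 (chr5:123228149-123228177, plus). Starts are those of the promoter table. The gene as a whole begins further upstream for Psmb6, so its element lies inside the annotated gene. In Psmc6 and Psmd12 the match is on the other strand and reads as its reverse complement.
Psmb5: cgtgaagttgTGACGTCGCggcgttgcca
Psmb6: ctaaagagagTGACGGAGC
Psmc6: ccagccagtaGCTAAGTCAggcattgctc
Psmd12: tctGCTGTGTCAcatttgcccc
Psmd9: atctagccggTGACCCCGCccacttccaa
The CCAAT box, the binding site of the factor NF-Y, was found as CCAAT on either strand in 11 of 28 members (39.3%) and 34.5% of all genes. The E-box CACGTG was found in 2 of 28 members (7.14%), Psma4 and Psmd9, and 6.05% of all genes. In Psmd9 the E-box starts 51 bases before the gene start and does not overlap the element at 31. These matches are letters in a window, and no binding was measured.

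Of the 35 members, 34 were above the floor on all 8 arrays, with signals from 647 to 18509. The exception was Psma8, an alpha subunit known from testis, which gave 65.8, 94.3, 96.5 and 46.0 in the wild-type-labelled arrays and 159, 67.7, 75.7 and 80.4 in the knockout-labelled ones. It was above the floor only in the knockout-labelled 0 h array and was not tested, and the 34 others are the members counted below. Added up, the signals of all 35 members went from 184697 at 0 h to 200411, 240472 and 299895 at the later times in wild-type-labelled arrays. In the knockout-labelled arrays the sum was 208362 at 0 h and 219878, 259459 and 275875 later. The knockout-labelled sum was the higher of the pair at 0, 4 and 8 h and the lower at 24 h.

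The first question was whether proteasome genes differed from 0 h during stimulation in both genotypes. At 24 h 33 of the 34 members stood above their 0 h signal in the wild-type-labelled arrays and 29 in the knockout-labelled ones, and 28 did so in both (21.8% of all genes tested). At 8 h 27 members were higher in both (22.7%) and at 4 h 16 (21.4%). The median log2 change over members in the wild-type-labelled arrays was 0.13, then 0.39, then 0.77 from 4 to 24 h, and 0.08, 0.33 and 0.34 in the knockout-labelled arrays. Over all 8430 genes the medians were -0.10, -0.06 and -0.06, and -0.06, -0.11 and -0.04. The 24 h medians correspond to 1.7-fold and 1.27-fold, with an SD over members of 0.31 and 0.29 on the log2 scale. Cell type markers moved between the same arrays: from 0 to 24 h granulocyte precursor markers changed by medians of -2.80 and -3.79 in the wild-type-labelled and knockout-labelled arrays, with 8 of 13 called lower in limma (2.48% of all genes). At 24 h 12 of these 13 were at the floor in the wild-type-labelled array and 3 in the knockout-labelled one. The floor therefore limits the size of these falls. Over the same time monocyte and macrophage markers changed by -1.52 and -1.29, B cell markers by -2.17 and -1.51 and T cell markers by -0.59 and 1.18. On all 4 wild-type-labelled arrays 3 of 14 measured monocyte and macrophage markers and 2 of 11 B cell markers were above the floor. In the knockout-labelled arrays these counts were 11 and 2, so the floor limits the changes of both lists too. The part of these shifts in the members' changes was not tested. The wild-type-labelled 8 h array had the highest ratio of 3' to 5' signal, 0.939 for Gapdh and 1.28 for beta-actin, against 0.725 to 0.813 and 1.11 to 1.17 on the others, and its part was not tested either. All of these contrasts share the 0 h arrays, and all members share the same 8 arrays, so members are not independent.

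**Figure D1:**
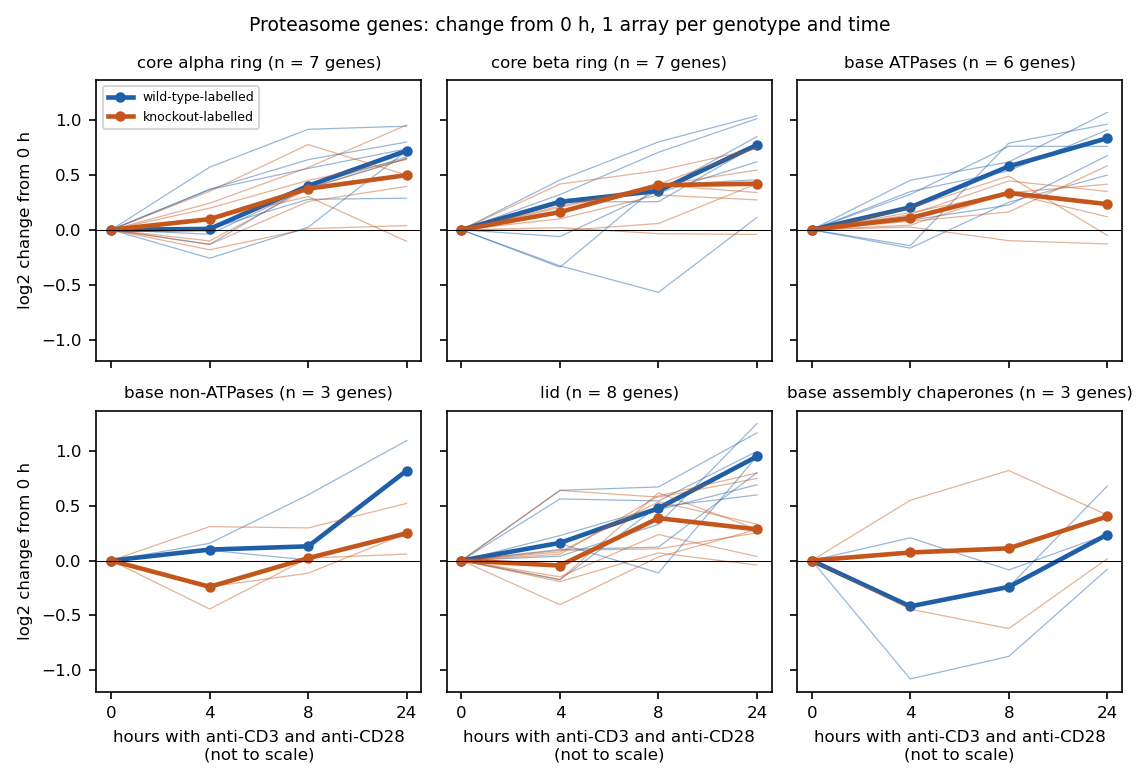
Log2 change from the 0 h array of the same genotype (y axis) at 0, 4, 8 and 24 h with antibodies (x axis, not to scale), 1 panel per group of subunits. Thin lines are single genes and thick lines with points their median, by labelled genotype and with 1 array per point. At 24 h the median of the lid subunits stood at 0.95 in the wild-type-labelled and 0.28 in the knockout-labelled arrays, and that of the alpha ring at 0.72 and 0.50.

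No single member passed the test of stimulation. In limma, with time and genotype in the model and Benjamini-Hochberg adjustment over all 15062 probe sets tested, 0 of 34 members passed an adjusted p under 0.05 at 4 h, where 0.807% of genes passed as higher and 0.605% as lower. At 8 h 0 of 34 passed (1.19% of genes higher and 1.23% lower), and at 24 h 0 of 34 (1.49% and 2.48%). For the mean of the 3 times 0 of 34 passed as well (1.8% and 2.62%). At an unadjusted p under 0.05 in limma 17 members were higher and 0 lower at 24 h, against 7.67% and 14.2% of all genes. At 8 h these counts were 6 and 1 (7.3% and 12.9%), at 4 h 1 and 1 (5.52% and 8.85%) and for the mean of the times 9 and 1 (8.03% and 14.9%). The p-values weigh the shared change of the genotypes by how far the genotypes part, with 3 residual degrees of freedom, and hold no spread between animals. Dividing each array by its median instead raised the 24 h count to 4, Psma2, Psmb6, Psmd8 and Psmd11, and moved the median change of all genes at 24 h from -0.07 to 0.15. The share of all genes that passed under that scaling was not counted. Relative to all genes the members' median change at 24 h, averaged over the genotypes, was then 0.71, against 0.64 in the values used here and 0.46 after quantile normalization. Leaving out the wild-type-labelled 24 h array let Psma2 pass at 24 h (limma adjusted p = 0.0337).

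By size, 27 members were at least 1.5-fold higher at 24 h than at 0 h in the wild-type-labelled arrays (16.3% of all genes), and 7 in the knockout-labelled ones (17.8%). In both genotypes at once this held for 5 members, Psma2, Psma6, Psmb6, Psmd8 and Psmd11, and for 5.33% of all genes. The other sets of Psma6 and Psmd11 above the floor on all 8 arrays did not reach 1.5-fold in both genotypes. Dividing arrays by their medians gave a knockout-labelled count of 12, and taking the median of a gene's probe sets gave 4. At 8 h the counts were 9 (17%) and 4 (12.3%) with 0 shared (6.45%), and at 4 h 1 (13.1%) and 1 (11.1%) with 0 shared (5.46%). Both 24 h arrays were above both 0 h arrays for 28 members (19.6%). All 6 stimulated arrays were above both 0 h arrays for 7 of 34 members, Psma2, Psmb4, Psmb6, Psmc2, Psmc5, Psmd8 and Psmd12, and for 7.3% of all genes. A second set of Psmb4 kept this order. That of Psmc2 did not, with 5713 at 4 h and 5721 at 0 h under the knockout label.

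**Figure D2:**
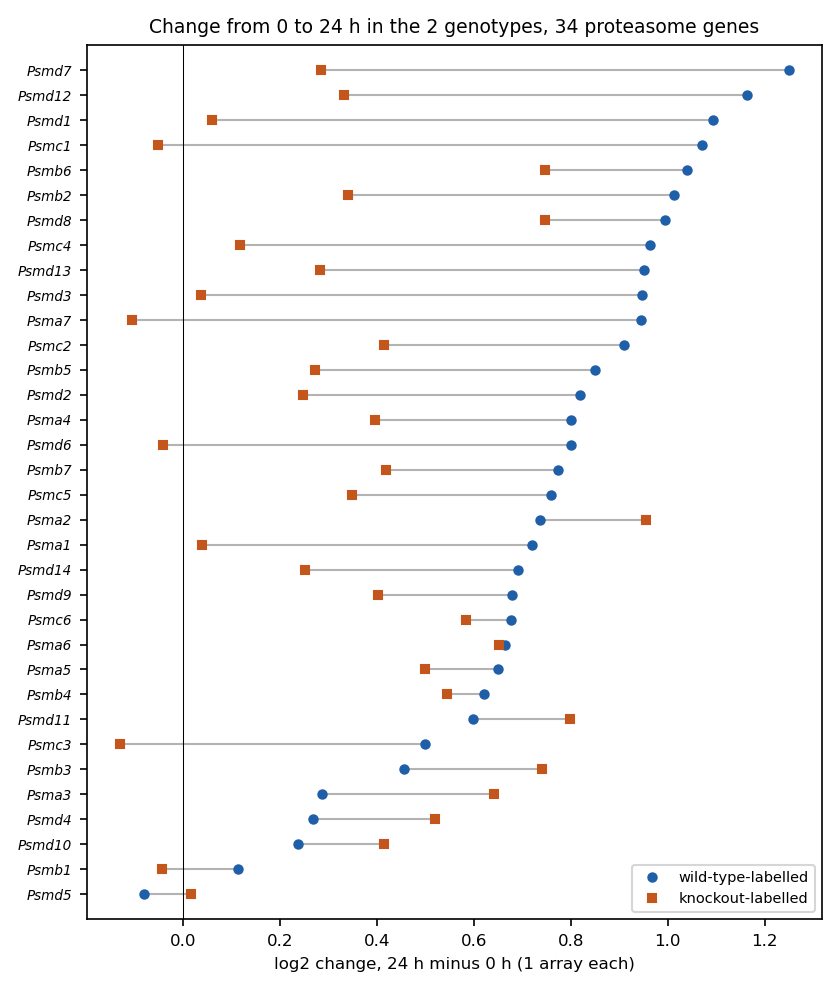
Log2 change from 0 h to 24 h (x axis, log2 units, 1 array each) of the 34 tested genes (y axis), as circles for the wild-type-labelled and squares for the knockout-labelled arrays. The circle lies right of 0 for 33 genes and the square for 29, and the square lies left of the circle for 27.

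The alpha ring, which opens to admit substrates, had median 24 h changes over its 7 tested subunits of 0.72 in the wild-type-labelled and 0.50 in the knockout-labelled arrays. Psma2, 1 of the subunits that build this ring, gave 8768, 11305, 12918 and 14615 at 0, 4, 8 and 24 h under the wild-type label and 8576, 10145, 12713 and 16624 in the knockout-labelled ones. Its signal was higher at each later time in both genotypes, and every stimulated array lay above both 0 h arrays. The change at 24 h was 0.85 (SE 0.21, limma adjusted p = 0.0791). Psma6 gave 11342, 10343, 14974 and 17971, and 10917, 10177, 14152 and 17150 in the knockout-labelled arrays. The courses of the genotypes were close, with 1.58-fold and 1.57-fold at 24 h and 4 h signals below those at 0 h, and the 24 h change was 0.66 (SE 0.20, limma adjusted p = 0.127). Its probe set carries the suffix that this array design gives to sets with probes shared with other sequences, so other transcripts may add to the signal. A second set without that suffix gave 6444, 6287, 8554 and 11817 against 6866, 6233, 8606 and 9378. There the 24 h changes were 0.87 and 0.45, so that the genotypes parted and the knockout-labelled change was under 1.5-fold. Psma1 was the tested alpha subunit with the smallest fitted change, with 6751, 5642, 6862 and 11125 against 9479, 8353, 9546 and 9736. Its wild-type-labelled signal stood apart only at 24 h, at 1.65-fold, while the knockout-labelled signal was at 1.03-fold (limma adjusted p = 0.438 for the mean). Psma3, whose tail takes part in closing the gate, gave 14189, 14271, 17205 and 17323 against 11872, 13618, 16221 and 18509. The knockout-labelled array was the lower one at 0 h and the higher one at 24 h, the reverse of the order seen in 19 members. Psma7 gave 5205, 7733, 9822 and 10017 under the wild-type label but 7825, 8370, 9652 and 7275 under the knockout label, where the 24 h signal was below that at 0 h. In a second set of Psma7 the knockout-labelled signal was 5516 at 0 h and 6859 at 24 h, so it was not below there.

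The beta ring holds the proteolytic sites, and its 7 subunits had median 24 h changes of 0.77 and 0.42 in the wild-type-labelled and knockout-labelled arrays. Psmb6, which carries the caspase-like site, gave 3017, 4133, 5256 and 6201 against 3510, 4037, 4682 and 5886. Its signal was higher at every later time in both genotypes, and the 24 h arrays lay above all others of their genotype. The change at 24 h was 0.89 (SE 0.21, limma adjusted p = 0.0702), the largest fitted change of the 34 members at that time. Psmb7, with the trypsin-like site, gave 8457, 10086, 10101 and 14457 against 11433, 11370, 11899 and 15294. In the knockout-labelled arrays its first 3 signals lay close together and only the 24 h signal stood above them (mean change 0.60, limma adjusted p = 0.167). Psmb5, with the chymotrypsin-like site, gave 5009, 4800, 6407 and 9026 against 6760, 7247, 8422 and 8169. The change at 24 h was 1.8-fold in the wild-type-labelled and 1.21-fold in the knockout-labelled arrays, from a higher 0 h signal in the latter (limma adjusted p = 0.246 for the mean). Psmb2 gave 2929, 3659, 4780 and 5910 against 3801, 4250, 5041 and 4811, 2.02-fold and 1.27-fold at 24 h. Psmb1 had the smallest fitted change of the beta ring, with 7919, 6306, 5334 and 8564 against 7497, 7599, 7315 and 7279. The knockout-labelled signals of Psmb1 were nearly level, and the wild-type-labelled 24 h signal was 1.08-fold that at 0 h.

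The 6 ATPases of the base, the ring motor that unfolds substrates, had median 24 h changes of 0.83 in the wild-type-labelled and 0.23 in the knockout-labelled arrays. Psmc2 gave 5385, 6854, 7816 and 10113 against 5878, 6050, 7429 and 7840. Each array was above the one before it in both genotypes, and the 24 h signal was 1.88-fold and 1.33-fold that at 0 h (mean change 0.66, SE 0.21, limma adjusted p = 0.146). A second Psmc2 set gave 5449, 6382, 7980 and 8589 against 5721, 5713, 7342 and 7062. In that set the knockout-labelled signal did not rise at every step, and the 24 h log2 changes were 0.66 and 0.30. Psmc6 gave 5428, 5765, 6346 and 8672 against 6708, 7076, 7506 and 10047, so that the knockout-labelled array was the higher at all 4 times. The 24 h changes of Psmc6 were alike at 1.6-fold and 1.5-fold (mean 0.63, limma adjusted p = 0.131). A second Psmc6 set gave 1343, 1184, 1683 and 2294 against 1286, 1535, 1954 and 1764. There the knockout-labelled array was the lower at 0 and 24 h, and the 24 h log2 changes were 0.77 and 0.46. Psmc3 had the smallest fitted change of the ATPases, with 4512, 4020, 5369 and 6376 against 6222, 6331, 5809 and 5691. Its 2 genotypes ran in opposite directions, with the knockout-labelled 24 h signal the lowest of that genotype. Psmc1 gave 2172, 2970, 3334 and 4562, a 2.1-fold difference at 24 h, against 3278, 3766, 4599 and 3165, where the 24 h signal was below that at 0 h. Psmc5 gave 3253, 4069, 5516 and 5510 against 3442, 3788, 4686 and 4385, with both genotypes highest at 8 h and every stimulated array above both 0 h arrays.

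Psmd1 and Psmd2 are the large scaffold subunits of the base, and Psmd4 is a receptor for ubiquitin chains. Psmd1 gave 2663, 2970, 4033 and 5682 against 4512, 3321, 4582 and 4700. The wild-type-labelled signal was 2.13-fold higher at 24 h and the knockout-labelled one 1.04-fold, and the knockout-labelled 0 h signal was already above the wild-type-labelled 8 h signal. Psmd2 gave 4485, 4806, 4906 and 7915 against 6138, 5200, 5665 and 7287, and the 24 h array stood above the other 3 in both genotypes. Psmd4 gave 4173, 4453, 4188 and 5025 against 3372, 4177, 4143 and 4837, a narrow range. The mean 24 h changes were 0.58, 0.53 and 0.39 for Psmd1, Psmd2 and Psmd4, and none passed (limma adjusted p = 0.29, 0.228 and 0.316).

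The lid had the highest median 24 h change of the 6 groups in the wild-type-labelled arrays, 0.95, and 0.28 in the knockout-labelled ones over its 8 subunits; differences between groups were not tested. Psmd8 gave 3703, 5465, 5398 and 7382 against 4418, 6882, 6594 and 7419. Its signal was already 1.48-fold and 1.56-fold higher at 4 h, and all stimulated arrays were above both 0 h arrays (24 h change 0.87, SE 0.20, limma adjusted p = 0.0702). Psmd7, the partner of the deubiquitinase subunit, gave 2835, 2914, 3564 and 6737 against 3016, 2676, 4624 and 3677. The wild-type-labelled 24 h signal was 2.38-fold that at 0 h, the highest fold of any member in either genotype, while the knockout-labelled series was highest at 8 h. With the median over its 3 probe sets Psmd7 passed at 8 h with a change of 1.19 (limma adjusted p = 0.0416). That median is a dim second set, which went from 196 at 0 h to 462 at 8 h under the wild-type label and from 112, below the floor, to 314 under the knockout label, while the set used here gave 0.47 (limma adjusted p = 0.45). Psmd12, whose upstream window holds an element at 247 bases, gave 2735, 4263, 4354 and 6132 against 3735, 3942, 5412 and 4702. All 6 of its stimulated arrays lay above both 0 h arrays, by a mean of 0.75 at 24 h (limma adjusted p = 0.17). Psmd14, the deubiquitinase that removes the chain as the substrate enters, gave 7868, 8841, 10842 and 12697 against 8972, 9567, 9663 and 10686. Each array was above the one before it in both genotypes, and the test was not passed (limma adjusted p = 0.275 at 24 h). Psmd11, which clamps the lid onto the core, gave 10161, 11898, 14252 and 15382 against 9075, 9442, 13650 and 15781, with 1.51-fold and 1.74-fold at 24 h. Its other sets above the floor on all 8 arrays were dimmer, with no signal above 4516. They gave log2 changes of 0.86 and 0.46, 0.27 and 0.46, and -0.32 and 0.30. Psmd3 gave 1506, 1334, 2128 and 2903 against 1847, 1666, 2176 and 1894, and only the wild-type-labelled 24 h array stood well apart. Psmd13 gave 1320, 1469, 1222 and 2551 against 1947, 1472, 1992 and 2369. Psmd6 had the smallest fitted change of the lid, with 4570, 4899, 4974 and 7957 against 6551, 5735, 6875 and 6366. In Psmd6 the fitted 24 h value of 0.38 joins 1.74-fold in the wild-type-labelled arrays with 0.972-fold in the knockout-labelled ones. A second Psmd6 set gave 4364, 4023, 5368 and 7995 against 5086, 5190, 6473 and 6689. There the 24 h log2 changes were 0.87 and 0.40 with a mean of 0.63, so the knockout-labelled signal was not lower than at 0 h.

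The 3 chaperones Psmd5, Psmd9 and Psmd10 help the base to assemble and are not part of the finished particle. Psmd5 was lower than at 0 h in both genotypes at 4 and 8 h, with 2828, 1339, 1543 and 2676 in the wild-type-labelled and 2859, 2102, 1860 and 2892 in the knockout-labelled arrays. All 4 arrays of 4 and 8 h lay below both 0 h arrays, and both 24 h signals were back near the 0 h level. Psma1, Psma6 and Psmd3 were also lower in both genotypes at 4 h, and Psmb1 at 8 h. The changes of Psmd5 were -0.76 at 4 h (SE 0.25, limma adjusted p = 0.246) and -0.75 at 8 h (SE 0.25, limma adjusted p = 0.166). Psmd9, with an element 31 bases before its start, gave 864, 647, 732 and 1383 against 836, 880, 903 and 1104. Psmd10, also known as gankyrin, gave 1349, 1557, 1271 and 1590 against 1194, 1747, 2108 and 1592, with the knockout-labelled 8 h array the highest. Neither passed at any time, with limma adjusted p of 0.367 and 0.572 at 24 h.

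The second question was how the genotypes differed in the course of the response. The step from 8 to 24 h was upward for 33 of 34 members in the wild-type-labelled arrays, with a median of 0.35 on the log2 scale, and for 44.4% of all genes. In the knockout-labelled arrays it was upward for 20 of 34 members, with a median of 0.11, and for 51.9% of all genes. The 24 h signal was the highest of the 4 times for 32 members in the wild-type-labelled arrays (24.7% of all genes) and 20 in the knockout-labelled ones (32%), where 12 members were highest at 8 h. At 24 h 6 members, Psmb2, Psmb6, Psmc1, Psmd1, Psmd7 and Psmd12, were at least 2-fold above 0 h in the wild-type-labelled arrays and 0 in the knockout-labelled ones. The shares of all genes at 2-fold, and of those highest at 8 h, were not counted. At 1.5-fold the 24 h shares were 16.3% of all genes in the wild-type-labelled and 17.8% in the knockout-labelled arrays. The knockout-labelled change was the smaller for 19 members at 4 h (45.4% of all genes), 20 at 8 h (51.8%) and 27 at 24 h (46.5%). The median difference in change was -0.07, -0.05 and -0.41 at these times, against 0.04, -0.03 and 0.04 over all genes. It was at least 1.5-fold smaller for 12 members at 24 h (23.8%), 1 at 8 h (20%) and 1 at 4 h (15.1%). The 12 were Psma1, Psma7, Psmb2, Psmc1, Psmc3, Psmc4, Psmd1, Psmd3, Psmd6, Psmd7, Psmd12 and Psmd13, and the 7 with a larger knockout-labelled change were Psma2, Psma3, Psmb3, Psmd4, Psmd5, Psmd10 and Psmd11. The order was the reverse in a second set of Psmb3, at 0.77 in the wild-type-labelled and 0.39 in the knockout-labelled arrays. It was also the reverse in a further set of Psmd4 (0.36 and 0.16) and of Psmd11 (0.86 and 0.46). The order was kept in other sets of Psmd4 (-0.83 and -0.09) and Psmd11 (0.27 and 0.46, and -0.32 and 0.30). Of the 12, second sets of Psmd6 (0.87 and 0.40) and Psmd13 (0.81 and 0.36) fell short of a 1.5-fold smaller change. Those of Psma7 (1.22 and 0.31) and Psmc4 (1.07 and 0.21) reached it. It was also reached in further sets of Psma5 (1.22 and 0.21) and Psmb4 (1.26 and 0.51), which are not among the 12. All these sets were above the floor on all 8 arrays. With 1 array per genotype and time these differences have no replicate check.

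**Figure D3:**
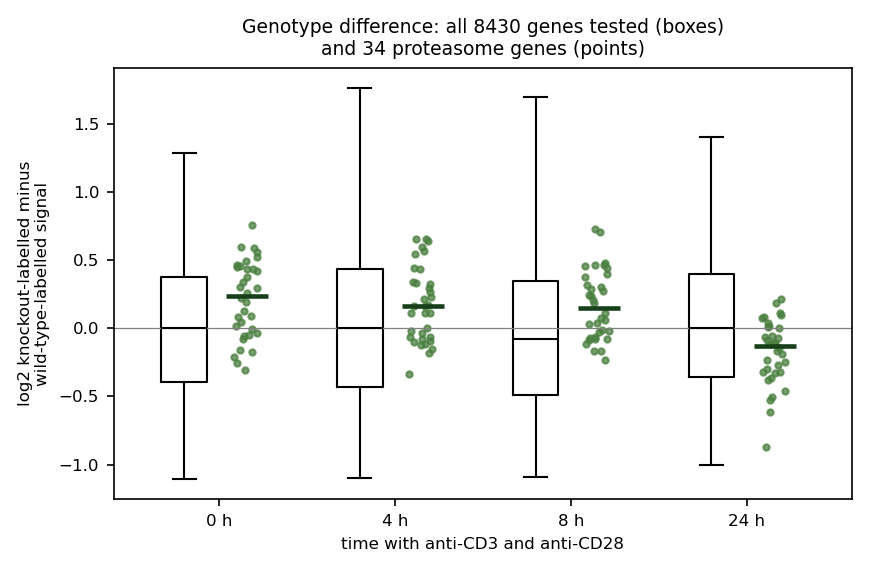
Log2 signal of the knockout-labelled minus the wild-type-labelled array (y axis) at each time (x axis), with 1 array per genotype. Boxes span the 25th to 75th percentile of all 8430 genes tested with whiskers at the 5th and 95th, and points are the 34 proteasome genes. The members lie in a narrower band than the genes as a whole, with medians of 0.24, 0.16, 0.15 and -0.13 at 0, 4, 8 and 24 h. The genes as a whole were not matched to the members for signal.

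Compared time by time, the knockout-labelled signal was the higher for 24 of 34 members at 0 h (45.3% of all genes), 22 at 4 h (45.6%), 22 at 8 h (40.9%) and 10 at 24 h (48.4%). It was the lower for 10 at 0 h (48.5%), 12 at 4 h (49.3%), 12 at 8 h (54.4%) and 24 at 24 h (45.7%). The median difference over members, knockout-labelled minus wild-type-labelled, was 0.24, 0.16, 0.15 and -0.13, and over all genes 0.00, 0.00, -0.08 and 0.00. The SD over members was 0.28, 0.28, 0.25 and 0.24. The order was thus higher at 0 h and lower at 24 h for 19 members, and for 22.8% of all genes. Dividing each array by its median left 0 members higher in the knockout-labelled array at 24 h and 18 at 4 h, and moved the 24 h median of all genes to -0.20 and that of the members to -0.41. Relative to all genes the members' 24 h median was then -0.21, against -0.13 in the values used here and -0.19 after quantile normalization.

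The differences were small in size. A 2-fold difference between genotypes was reached by 0 of 34 members at any time and by 36.3% of all genes at 1 or more times. The lowest member signal, 647, was above the median signal of every array (224.3 to 305.0), and all genes were not matched to the members for signal. A knockout-labelled signal at least 1.5-fold above its counterpart was seen for Psma7, Psmc1 and Psmd1 at 0 h (3 members, 17.3% of genes), Psmb5, Psmc3, Psmc4 and Psmd5 at 4 h (4, 20.6%), Psmd10 and Psmd13 at 8 h (2, 18.2%) and 0 at 24 h (18.2%). At least 1.5-fold lower were 0 members at 0 h (17%), 4 h (17.5%) and 8 h (20.6%), and Psmd3 and Psmd7 at 24 h (2, 15%). In second sets above the floor on all 8 arrays, Psma7 differed by 0.37 on the log2 scale at 0 h, under 1.5-fold. That of Psmc4 gave 3459 in both genotypes at 4 h, and that of Psmd13 gave 1140 against 921 at 8 h. Further sets of Psma5 and Psmb4 reached 1.5-fold higher at 0 h (0.75 and 0.63), and a set of Psmd4 reached 1.5-fold lower (-0.98). The highest single difference was that of Psmd1 at 0 h, 0.76 on the log2 scale, and the lowest that of Psmd7 at 24 h, -0.87. The knockout-labelled array was higher at all 4 times for 4 members, Psmb7, Psmc6, Psmd8 and Psmd5, and lower at all 4 times for 2, Psma6 and Psmd4. These orders did not hold in second sets of Psmc6, Psma6 and Psmd4. There the knockout-labelled signal was lower for Psmc6 at 0 h (1286 against 1343) and 24 h (1764 against 2294). It was higher for Psma6 at 0 h (6866 against 6444) and for Psmd4 at 8 h (3760 against 3145). In the same arrays granulocyte precursor markers differed by medians of 3.40, 4.34, 4.34 and 1.35 over the 4 times. The 24 h value is limited by the floor, which 12 of 13 markers had reached in the wild-type-labelled array. T cell markers differed by medians of -1.69, -1.67, -1.64 and -0.25 at 0, 4, 8 and 24 h, monocyte and macrophage markers by 1.42, 2.16, 3.54 and 2.39, and genes of mitosis by 1.18, 2.59, 2.16 and -0.74. DNA replication genes differed by 0.89, 1.29, 0.56 and -1.62. The floor also limits the monocyte and macrophage values, as 3 of 14 of these markers were above it on all 4 wild-type-labelled arrays. The sign of the median of the proteasome members turned between 8 and 24 h, as did those of the mitosis and replication genes, and the part of cell type or proliferation in this was not tested.

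The inducible subunits Psmb8, Psmb9 and Psmb10 replace Psmb5, Psmb6 and Psmb7 in the immunoproteasome, which interferon induces and which favours peptides for antigen presentation. Psmb8 gave 8054, 5567, 6638 and 7290 in the wild-type-labelled arrays and 5265, 6533, 8616 and 7040 in the knockout-labelled ones. Psmb9 gave 5604, 8078, 6121 and 5964 against 3500, 6559, 9020 and 5716. Both were highest at 8 h in the knockout-labelled arrays and close between genotypes at 24 h. Psmb10 gave 3702, 2728, 2556 and 2476 against 2974, 4632, 8031 and 2688, so that the 8 h arrays differed by 1.65 on the log2 scale. At 24 h 0 of the 3 passed, and 0 had an unadjusted p under 0.05 in limma (adjusted p = 0.822, 0.512 and 0.687). Their median change at 24 h was -0.14 in the wild-type-labelled arrays, against 0.77 for the members, and 0.42 against 0.34 in the knockout-labelled ones. Dividing arrays by their medians gave 0.28 against 1.19 and 0.59 against 0.51.

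**Figure D4:**
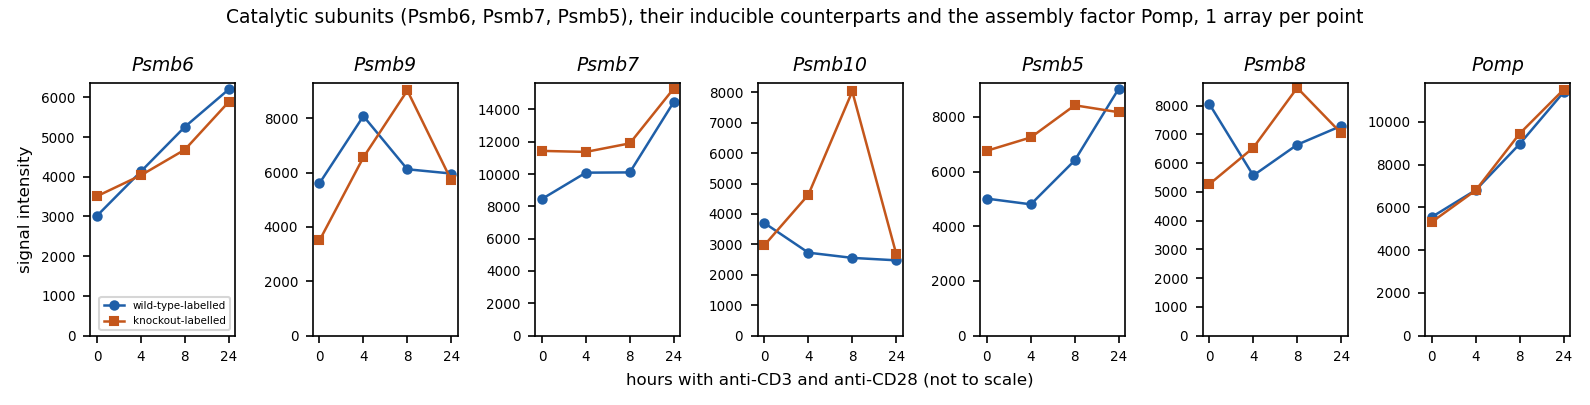
Signal intensity (y axis, linear from 0) of 3 catalytic subunits, their inducible counterparts and the assembly factor Pomp at 0, 4, 8 and 24 h (x axis, not to scale), 1 array per point. Psmb6 is higher at each later time in both genotypes, from 3017 to 6201 and from 3510 to 5886, while Psmb10 peaks at 8031 in the knockout-labelled 8 h array and Pomp runs alike in both.

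Other genes of the pathway were counted in 8 lists with 37 measured genes, of which 36 were tested. Of these 36, 0 passed in limma at 4 and 8 h and 1 passed as higher at 24 h. At an unadjusted p under 0.05 in limma 5 were higher and 1 lower at 4 h (5.52% and 8.85% of all genes), 8 and 1 at 8 h (7.3% and 12.9%), and 5 and 1 at 24 h (7.67% and 14.2%). The called gene was Pomp, the chaperone that guides assembly of the core. Pomp gave 5553, 6813, 8970 and 11393 in the wild-type-labelled and 5319, 6803, 9456 and 11514 in the knockout-labelled arrays. The genotypes were nearly equal at each time and all stimulated arrays exceeded both 0 h arrays. Pomp rose by 1.08 on the log2 scale at 24 h (SE 0.19, limma adjusted p = 0.0376). The call was lost under 10 of 17 alternatives, whose adjusted p ranged from 0.0205 to 0.178, and it was lost without any 1 array other than the wild-type-labelled 24 h array (limma adjusted p from 0.0674 to 0.178). The other core chaperones did not pass, and Psmg2, the 1 with the smallest fitted change, gave 2948, 3309, 3491 and 5093 against 4707, 2891, 3660 and 2349. It was highest at 24 h in one genotype and lowest there in the other.

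The activators open the core without the regulatory particle, and 0 of the 4 genes of the activator and inhibitor list passed, with 3 higher at an unadjusted p under 0.05 in limma at 24 h (7.67% of all genes). Psme3, whose activator is nuclear, had the largest fitted change, with 1296, 3711, 3205 and 4415 against 1920, 1948, 2535 and 2251. The wild-type-labelled change was 1.77 at 24 h and the knockout-labelled one 0.23 (limma adjusted p = 0.209 for the mean). Psme4 had the smallest, with 0.40 at 24 h (limma adjusted p = 0.323). Sem1, a small lid subunit outside the naming rule, stayed between 7498 and 10847 on all arrays (24 h limma adjusted p = 0.814). Of the enzymes bound to the particle Uchl5, a deubiquitinase, gave 3781, 2692, 3567 and 8073 against 6414, 4743, 4620 and 4608, and Ube3c, a ubiquitin ligase, had the smallest fitted change (0.16 at 24 h, limma adjusted p = 0.831).

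Shuttle factors carry ubiquitinated proteins to the proteasome, and p97, the product of Vcp, extracts them from complexes. Among 5 shuttle genes Sqstm1, an adaptor of selective autophagy, had the largest fitted change, with 4526, 9236, 6495 and 4646 against 2965, 10639, 7929 and 6922. Both genotypes were highest at 4 h, by 1.44 on average (limma adjusted p = 0.105). Ubqln1 had the smallest fitted change, -0.29 at 24 h (limma adjusted p = 0.461). Of the 7 p97 genes Nsfl1c, a cofactor, had the largest fitted change, 0.78 at 8 h (limma adjusted p = 0.114), and Vcp the smallest, 0.33 at 8 h (limma adjusted p = 0.506).

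Among the genes that control proteasome transcription, Nfe2l1 gave 609, 1458, 2145 and 926 in the wild-type-labelled and 785, 2068, 1769 and 718 in the knockout-labelled arrays. Its 4 arrays of 4 and 8 h lay above both 0 h and both 24 h arrays, at times when most members stood below their 24 h signal. The change was 1.33 at 4 h (limma adjusted p = 0.142) and 1.49 at 8 h (limma adjusted p = 0.072), and 0.24 at 24 h. Maff, a small partner protein of this family, had the largest fitted change of the list, 2.11 at 4 h (limma adjusted p = 0.18). It was under the floor in both 0 h arrays, at 105 and 68.5, and the fitted value therefore rests on the floor. Keap1 had the smallest, -0.38 at 4 h (limma adjusted p = 0.629), and Nfe2l3 was not tested. Ubiquitin genes and the ubiquitin-activating enzymes had no probe set with a single symbol here, and neither had Psme2.

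The chaperonin CCT and the cytosolic ribosomal proteins are other large complexes of growing cells and were set beside the proteasome. The 8 CCT genes had median changes of 0.14, 0.54 and 0.69 at the 3 later times in wild-type-labelled arrays. In the knockout-labelled ones the CCT medians were -0.11, 0.06 and 0.30, of which the 24 h value was -0.08 after quantile normalization. The 41 tested ribosomal protein genes had 0.16, 0.29 and -0.20, and 0.15, 0.18 and 0.59. Dividing each array by its median turned the wild-type-labelled 24 h value of the ribosomal genes to 0.23, and quantile normalization gave 0.03 and -0.03 at 24 h in the 2 genotypes. At 24 h 0 of the 8 CCT genes and 0 of the 41 ribosomal genes passed in limma (1.49% of all genes higher, 2.48% lower), with 2 and 2 higher at an unadjusted p under 0.05 (7.67% of all genes). The proteasome medians at 24 h were above 0 in both genotypes under all 3 scalings, at 0.67 and 0.29 after quantile normalization and 1.19 and 0.51 when dividing by array medians. Differences between the lists were not tested.

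Second probe sets gave a check of the choice of 1 per gene. A single probe set was listed for 17 members, and 29 further probe sets belonged to the others, of which 16, from 12 genes, were above the floor on all 8 arrays. The mean change at 24 h had the same direction as that of the representative in 14 of the 16, with a median absolute difference of 0.163 and a highest one of 0.855 on the log2 scale. The exceptions were a second set for Psmd11, at -0.01, and one for Psmd4, at -0.46. The wild-type-labelled change exceeded the knockout-labelled one in 12 of the 16, and their median changes were 0.79 and 0.38.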

How the data were processed

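Signal intensity on 8 arrays was deposited by the authors in 1 table of 22690 probe sets, 64 of them controls. It came from GCOS 1.4 with MAS5, per the submitters' processing notes; scaling targets and further steps are not given in the sources used here. All per-sample columns were used (0 unused). Gene symbols came from GEO's platform annotation (20380 probe sets with 1 symbol, 691 with several, 1555 with none), and 0 symbols were changed through RefSeq.

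A floor of 141.88 (log2 7.15) replaced lower signals before log2; it is the 40th percentile of an array, as the median of the 8. The 15062 probe sets above it on at least 2 arrays were fitted with limma 3.58.1 (R 4.3.3), terms for time and genotype, eBayes with a variance trend and Benjamini-Hochberg adjustment (threshold 0.05; 3 residual and a median of 3.88 prior degrees of freedom). The script was tested on simulated data. Genotypes were compared by size only. With 1 array per group, the number of arrays limits the precision.

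The members and lists were chosen with earlier results of these data known. Signals on all arrays are given for the 2 members of largest and the 1 of smallest fitted change in each role, the catalytic subunits, and the 2 highest and 2 lowest genotype differences per time; other members named (Psma7, Psmb3, Psmb4, Psmc4, Psmd12, Psmd14 among them) were chosen after their values were seen. In related lists the genes of largest and smallest change are named. Alternatives were other scalings, floors, transforms, probe set choices, models and thresholds, and leaving out each array.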

Additional observations from a re-analysis of the deposited data

Results flagged for a closer look

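A gene is listed here where the change from 0 h had opposite signs in the 2 genotypes and differed by at least 2-fold between them. With 1 array per genotype and time none of these differences was tested. Each value is the knockout-labelled minus the wild-type-labelled log2 change.

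Among the proteasome members, the alpha subunit Psma7 differed by -1.05 and the ATPase Psmc1 by -1.12 at 24 h. Both had the knockout-labelled 0 h array above the wild-type-labelled one and the reverse at 24 h. A second set of Psma7, also above the floor on all 8 arrays, gave 24 h changes of 1.22 and 0.31 in the wild-type-labelled and knockout-labelled arrays. The opposite signs of Psma7 therefore rest on the set used. The inducible catalytic subunit Psmb10 differed the other way, by 1.08 at 4 h and 1.97 at 8 h.

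Among genes around the proteasome at 24 h, the core chaperones Psmg1 and Psmg2 differed by -1.2 and -1.79, the deubiquitinases Usp14 and Uchl5 by -1.93 and -1.57, the shuttle factor Rad23b by -1.03, the p97 cofactor Faf1 by -1.05 and the small Maf protein Mafg by -1.27. The shuttle factor Ubqln4 differed by -1.25 at 4 h, -2.14 at 8 h and -1.91 at 24 h. Positive differences were those of the p97 cofactor Ubxn4, 1.41 at 8 h, and of the transcription factor Nfe2l2, 1.05 at 4 h.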

How the results depend on the processing

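Alternatives for counts by fold size and for single genes were added after seeing the data. Of the alternative values for group results, 125 stayed on the same side or close to the value used, 9 counts were larger, 1 was smaller, 7 medians moved and 0 reversed. Members passing limma numbered 1 at 8 h taking the median of a gene's probe sets. At 24 h they numbered 4 with each array divided by its median, 3 at an adjusted p under 0.1, and 0 to 1 without each array in turn. For the mean of the times they numbered 2 with each array divided by its median (Psma2 and Psmd8), 2 at an adjusted p under 0.1 (Psmb6 and Psmd8), and 0 to 2 without each array. Without the wild-type-labelled 24 h array these were Psma2 and Psmd8, and without the knockout-labelled 24 h array Psmd8 alone. The shares of all genes that passed under these alternatives were not counted. Median changes moved under quantile normalization to 0.00609 at 4 h and 0.466 at 24 h, and to 0.295, 0.626 and 0.864 at 4, 8 and 24 h when arrays were divided by their medians. The latter moved the median genotype difference to 0.0261 at 4 h and -0.407 at 24 h. Members at least 1.5-fold higher at 24 h in the knockout-labelled arrays numbered 12 with that scaling and 4 with the median over probe sets, against 7. The causes were not tested, beyond the wider threshold of the looser call rule. Pomp kept its direction in all alternatives but missed the threshold in 10, among them no filter (limma adjusted p = 0.068), no genotype term (0.0777) and no variance trend (0.0579).

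Genotype and source number coincide, so the genotype term of the model also blocks by source, and without it 0 members passed at any time. The design has 1 array per genotype and time from 1 source per genotype, so spread between animals is not measured. All but 1 of the members were far above the floor, and the floor settings did not change their counts.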
